A study of Mus musculus with 4 samples.

Results

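The genes described here are the 120 mouse protein-coding genes of chromosomes 7 and 13 that are named Zfp followed by digits alone. There were 89 of them on chromosome 7 and 31 on chromosome 13, out of 21755 protein-coding genes of GENCODE release M21 on the 20 chromosomes of the TAD lists. The rule uses name and chromosome alone and no measured value, but it was set with earlier results of these data known. Each gene was placed by its 5′ start in the TADs of AML12 cells, once for the 2D culture and once for the 3D culture. TADs, or topologically associating domains, are stretches of a chromosome whose parts contact each other more often than they contact their surroundings. AML12 is an immortalized hepatocyte line derived from the liver of a mouse transgenic for human TGF-alpha.

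In situ Hi-C, which cuts and religates chromatin inside the nucleus to record which DNA lies close together, was run on 4 samples, 2 biological replicates of the 2D-cultured cells in dishes and 2 of the 3D-cultured cells embedded in Matrigel. All 4 samples had been exposed to 1 mM hydroxyurea to hold the cells at the G1/S boundary. The exposure lasted 24 h for the 2D culture and 36 h for the 3D culture, so the culture and the length of the exposure cannot be told apart. The replicates had been combined before TADs were called, which left 1 list per culture, 4467 TADs long for 2D and 4355 for 3D. There was therefore no spread between replicates, and no p-value was computed. The lists hold positions on a grid of 40 kb without read counts. How deeply each TAD was sequenced is therefore unknown, and the identity of the cells could not be checked against marker genes. Intervals are 95% Wilson intervals and cover counting error only. Neighbouring genes share TADs, so the genes are not independent observations and their intervals are too narrow.

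Most genes with these names encode C2H2 zinc finger proteins, in which each finger is folded around a zinc ion and reads a few bases of DNA. Many carry a KRAB domain, which recruits the corepressor TRIM28 and through it the histone methyltransferase SETDB1 and HP1 proteins, and they are best known for silencing retroelements. The family grew by tandem duplication, and its genes therefore lie side by side in clusters that are themselves often packed in heterochromatin marked by H3K9me3. In liver cells, members of such clusters are known to repress genes with sex-biased expression.

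A cluster was defined as at least 3 of the genes with at most 500 kb from one to the next. This gave 11 clusters with 99 of the 120 genes, 9 on chromosome 7 and 2 on chromosome 13. The cluster with most genes was on chromosome 13 (chr13:67038596-67827002 in GRCm38, the build that mm10 names) and held 19, from Zfp712 to Zfp273. On chromosome 7, the largest clusters ran from Zfp84 to Zfp146 (15 genes, chr7:29768552-30169750), from Zfp180 to Zfp526 (14 genes, chr7:24081924-25227507) and from Zfp553 to Zfp646 (10 genes, chr7:127233061-127885996). The other clusters of chromosome 7 ran from Zfp628 to Zfp580 (6 genes), from Zfp787 and Zfp444 to Zfp28 (6 genes), from Zfp954 to Zfp772 (4 genes, with Zfp773 and Zfp418 between them), from Zfp551 to Zfp446 (7 genes), from Zfp60 to Zfp36 (6 genes) and from Zfp141 to Zfp819 (9 genes), and the other cluster of chromosome 13 held Zfp808, Zfp935 and Zfp934. Between neighbouring genes of a cluster the median gap was 17.1 kb, and 51 of 88 neighbour pairs (58.0%) were on the same strand.

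The coding sequences of the genes were compared for fingers and for likeness. In the translated coding sequence of the longest transcript, the C2H2 pattern (a pair of cysteines and a pair of histidines at the spacing of a finger) was found between 0 and 33 times per gene, with a median of 11, and 96 of the 120 genes had 8 or more copies. Zfp619 had the most, 33, followed by Zfp646 with 27. No copy was found in 2 genes, Zfp935 and Zfp36, the latter encoding tristetraprolin, a protein with CCCH fingers that binds AU-rich elements of mRNAs. The genes of the Zfp712 to Zfp273 cluster had a median of 15 fingers. Across the 171 pairs within this cluster, the median identity of aligned coding bases was 75.9%, beside cluster medians of 66.3% to 93.6% over all 11 clusters. Gaps were not counted, so genes of unlike length can also score high, as Zfp688 and Zfp646 did with 88.9%. Zfp36, which has no C2H2 pattern, scored 68.9% to 72.2% against the other genes of its cluster. Values in that range therefore do not by themselves show that genes are related. The most alike of the 171 pairs were Zfp85 and Zfp273, with 96.8% identity over 1419 aligned bases. Stretches of 147 coding bases from this pair are printed to show how nearly the copies match. The capitals mark the 7 bases at which they differ, and each stretch runs 5′ to 3′ on the strand of its gene in GRCm38.
Zfp85 (chr13:67749559-67749705, minus strand): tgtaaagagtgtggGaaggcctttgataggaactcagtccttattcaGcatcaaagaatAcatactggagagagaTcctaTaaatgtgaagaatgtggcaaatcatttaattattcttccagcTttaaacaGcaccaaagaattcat
Zfp273 (chr13:67825001-67825147, plus strand): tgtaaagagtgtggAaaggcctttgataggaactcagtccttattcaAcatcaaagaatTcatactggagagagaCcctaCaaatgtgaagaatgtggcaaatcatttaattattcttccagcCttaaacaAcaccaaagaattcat
These genes lie at the same end of the cluster, and both were inside TADs in both cultures.

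In 2D, 39 of the 120 genes had their start outside every listed TAD, 32.5% (24.8 to 41.3), against 23.3% of all protein-coding genes. In 3D, 14 of the 120 did so, 11.7% (7.08 to 18.6), against 16.5% of all protein-coding genes. In 3D the interval of these genes holds the share of all genes. In 2D it lies above it, but the 39 genes lay in 10 stretches. That interval is too narrow to show a difference. Among the other 2741 protein-coding genes of both chromosomes, 26.5% were outside in 2D and 19.1% in 3D. The 2D interval holds the first of these shares. The 3D interval lies below the second, but the 14 genes lay in 6 stretches, so it is likewise too narrow. Without the Zfp712 to Zfp273 cluster, 27.7% of the genes were outside in 2D and 13.9% in 3D. Without the Zfp84 to Zfp146 cluster the shares were 26.7% and 3.81%, so the shares depend on single clusters. The 245 genes named Zfp and digits on the other chromosomes had shares of 33.1% and 29.4%. None of these differences was tested, because each culture was a single list.

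**Figure D1:**
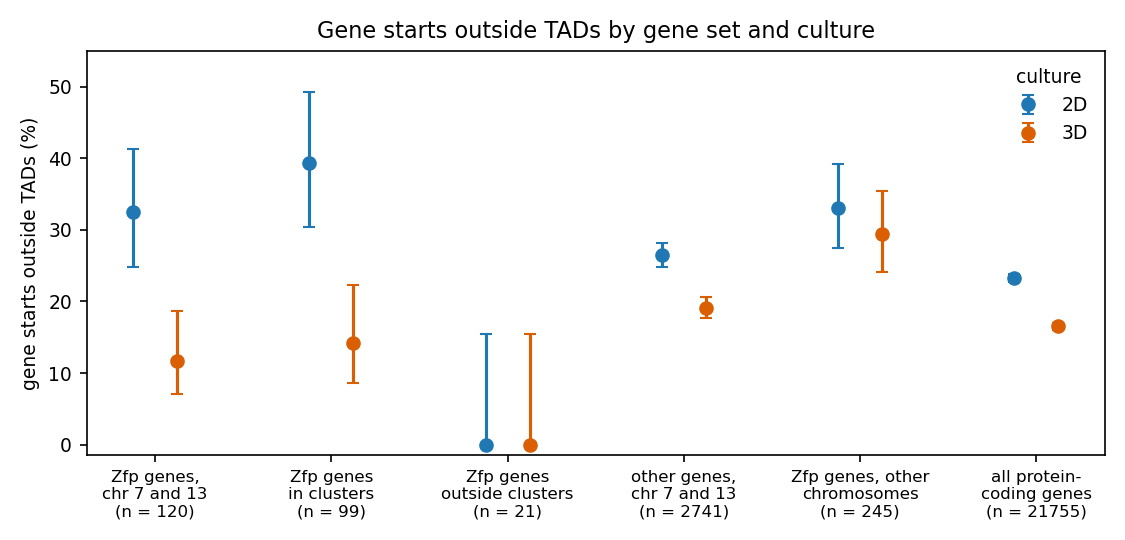
Percent of gene starts outside TADs (vertical axis) for 6 gene sets, with 2D in blue and 3D in orange; bars are 95% Wilson intervals, which cover counting error only. The 120 genes went from 32.5% in 2D to 11.7% in 3D, while the 21 genes outside clusters had no start outside TADs in either list.

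Every start outside TADs belonged to a clustered gene. Of the 99 clustered genes, 39 (39.4%) were outside in 2D and 14 (14.1%) in 3D. Of the 21 genes that lie apart from the clusters, 0 were outside in either list, with a Wilson upper limit of 15.5%. On chromosome 7, 28 of 89 genes (31.5%) were outside in 2D and 14 (15.7%) in 3D, beside 30.7% and 20.7% of the other genes of that chromosome. On chromosome 13, 11 of 31 genes (35.5%) were outside in 2D and 0 of 31 in 3D, which allows a share of up to 11%. The other genes of chromosome 13 had shares of 16.4% in 2D and 15.1% in 3D.

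Taking both lists for each gene, 80 genes (66.7%) were inside a TAD in both cultures, against 72.7% of all protein-coding genes. A further 26 genes (21.7%, 15.2 to 29.9) were outside in 2D and inside in 3D, against 10.8% of all genes. The opposite placement, inside in 2D and outside in 3D, was found for 1 gene, Zfp74, against 3.95% of all genes. Both lists left 13 genes (10.8%) outside, against 12.6% of all genes. The 26 genes came from 6 clusters, 11 from Zfp712 to Zfp273, 5 from Zfp628 to Zfp580, 3 from Zfp60 to Zfp36, 3 from Zfp553 to Zfp646, 2 from Zfp84 to Zfp146 and 2 from Zfp180 to Zfp526. Without the Zfp712 to Zfp273 cluster the count was 15 of 101 (14.9%, 9.21 to 23.1).

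The Zfp712 to Zfp273 cluster of chromosome 13 was 1 TAD in one list and several pieces in the other. In 3D a single TAD of 960 kb (chr13:66880001-67840000) held all 19 genes, the most of any TAD of either list, among 35 protein-coding genes in all. In 2D the same span was divided. A TAD of 120 kb (chr13:66880001-67000000) lay before the first gene, and it was followed by a stretch of 480 kb outside TADs (chr13:67000001-67480000). That stretch held 11 genes, Zfp712, Zfp708, Zfp759, Zfp455, Zfp458, Zfp457, Zfp595, Zfp953, Zfp456, Zfp429 and Zfp459. A TAD of 120 kb (chr13:67480001-67600000) then held Zfp58, Zfp87 and Zfp748, and a TAD of 240 kb (chr13:67600001-67840000) held Zfp738, Zfp65, Zfp85, Zfp493 and Zfp273. Both outer ends of the 3D TAD were also TAD ends in 2D, at the same positions, so the lists differed inside this span and not at its limits.

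**Figure D2:**
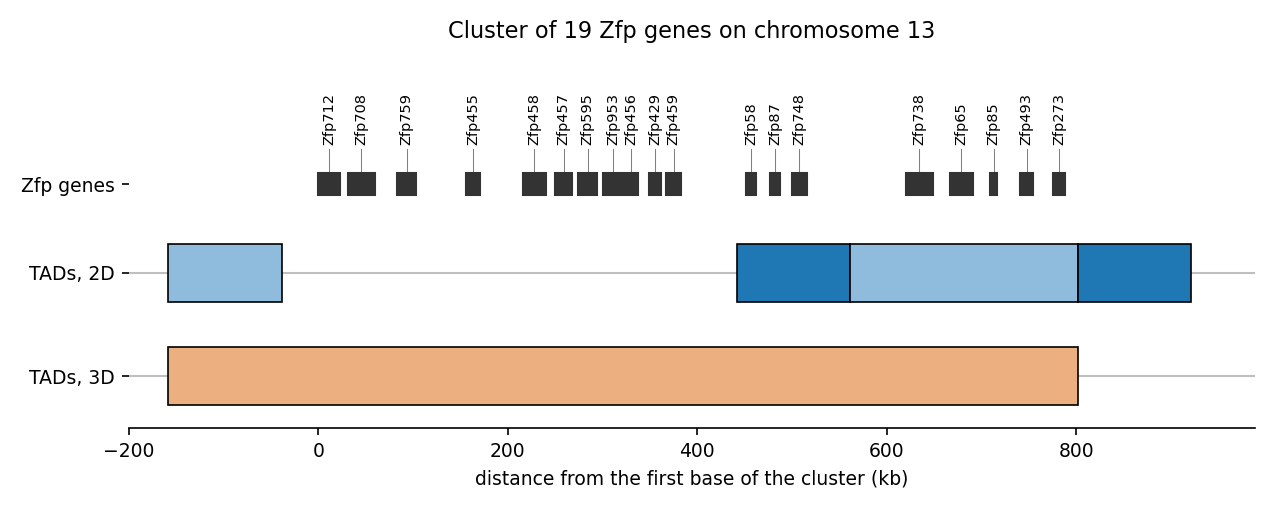
Map of the Zfp712 to Zfp273 cluster, with distance from the first base of the cluster in kb (horizontal axis), gene bodies in black, TADs of the 2D list in blue and of the 3D list in orange, in alternating shades; the grey line marks what lies outside TADs. In 2D the first 11 genes lie outside TADs, whereas 1 TAD of the 3D list covers all 19.

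Of the 19 genes, 15 are on the minus strand. Rsl1, the gene of this region known for repressing sex-limited liver genes, is named outside the rule for the 120 genes, but it lies in the same stretch and was likewise outside TADs in 2D and in the 960 kb TAD in 3D. The stretch outside TADs was compared in sequence with the 2D TADs after it, of 120 and 240 kb. Its GC content was 40.6%, beside 39.9% and 40.8%, and repeats marked in the reference covered 35.7% of its bases, beside 29.7% and 39.3%. MboI, the enzyme that cut the chromatin, had 108.2 sites per 40 kb in the stretch and 93.3 and 99.3 in the TADs. Words of 30 bases that occur more than once in the genome made up 27.1% of those sampled in the stretch, 12.6% and 32.2% in the TADs and 20.05% on the rest of both chromosomes. Recurring words of 150 bases, in which a read of that length cannot be placed uniquely, made up 3.88% in the stretch, 0.708% and 5.27% in the TADs and 6.64% on the rest. On these measures except the MboI sites, the stretch lay between the neighbouring TADs. Neither the stretch nor the TADs held unknown bases, which made up 0.271% of the rest of both chromosomes. The part of sequence in the placement was not tested.

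The Zfp84 to Zfp146 cluster of chromosome 7 was left largely outside TADs by both lists. It has 16 protein-coding genes, of which 15 are of the 120. In 2D a single TAD of 160 kb (chr7:29920001-30080000) held 4 of them, Zfp74, Zfp568, Zfp14 and Zfp82. In 3D the corresponding TAD was 1 bin shorter (chr7:29960001-30080000) and held Zfp568, Zfp14 and Zfp82, so that the start of Zfp74, 5.91 kb from the 3D border, fell outside. Zfp568, known for repressing a placental promoter of Igf2, was thus inside a TAD in both lists. Zfp84 and Zfp30 were outside in 2D and at the end of a TAD of 280 kb (chr7:29520001-29800000) in 3D. Zfp30 is a KRAB zinc finger gene linked to the neutrophil response of the airways. The other 9 genes were outside in both lists, with Zfp790, Zfp940, Zfp420, Zfp27 and Zfp383 before the central TAD and Zfp566, Zfp260, Zfp382 and Zfp146 after it. These 9 were among the 13 genes outside in both cultures. The stretches before and after the central TAD measured 160 and 240 kb in 2D and 160 and 160 kb in 3D. All 3 borders of the 2D list at this cluster had a border of the 3D list within 40 kb. Without this cluster, 26.7% of the genes were outside in 2D and 3.81% in 3D.

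**Figure D3:**
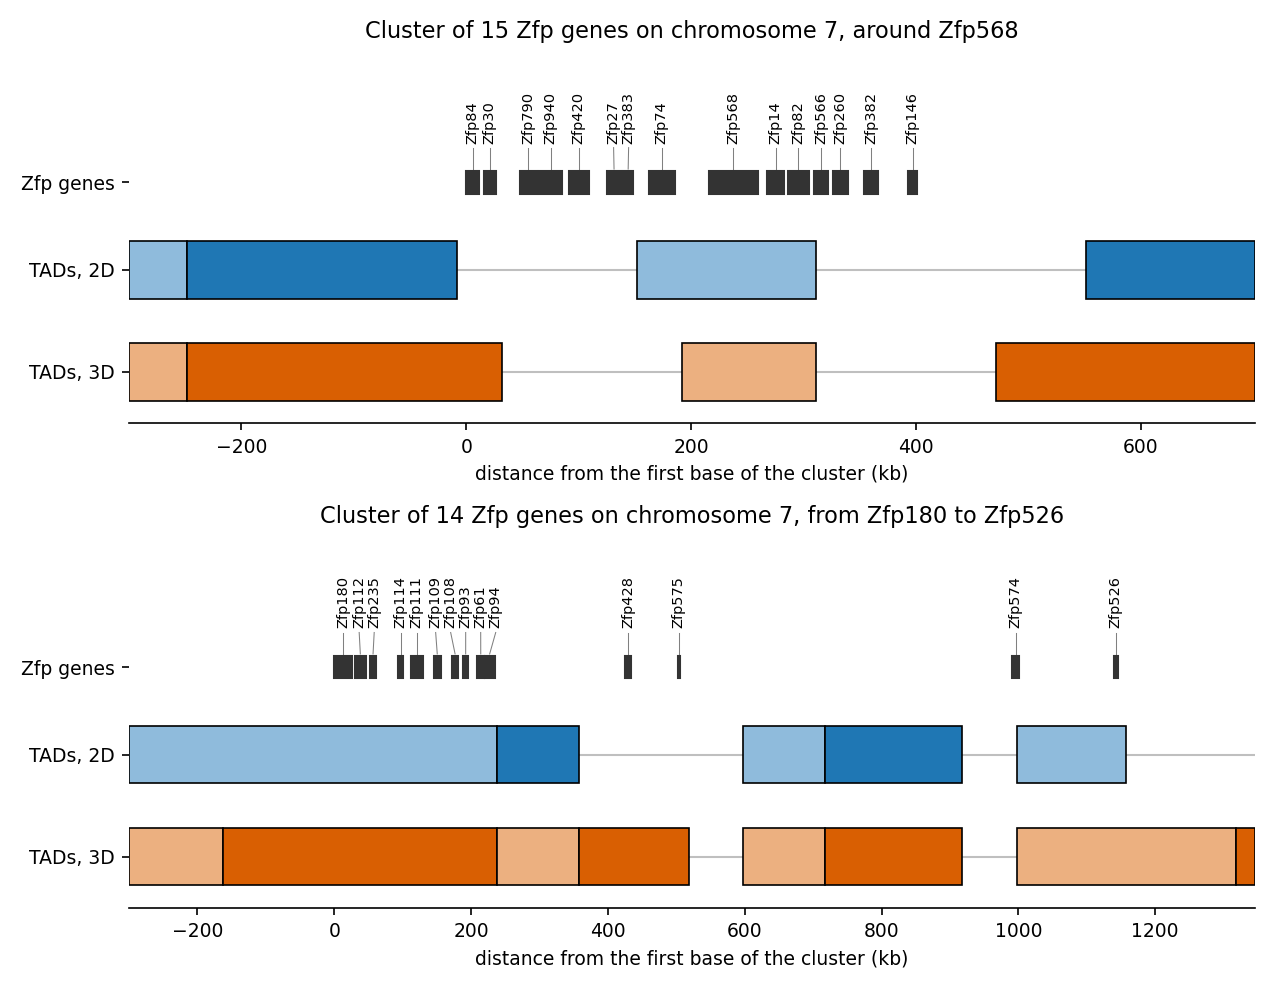
Maps of the Zfp84 to Zfp146 cluster (upper panel) and of the Zfp180 to Zfp526 cluster (lower panel), with distance from the first base of each cluster in kb (horizontal axes), gene bodies in black and TADs of the 2D list in blue and of the 3D list in orange. In the upper panel 9 genes lie outside TADs in both lists; in the lower panel the first 10 genes share 1 TAD in each list, of 1040 kb in 2D and 400 kb in 3D.

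In the Zfp180 to Zfp526 cluster, the first 10 genes (Zfp180, Zfp112, Zfp235, Zfp114, Zfp111, Zfp109, Zfp108, Zfp93, Zfp61 and Zfp94) shared a TAD in each list, and that TAD held the most of the 120 genes in 2D. Its right end was the same in both, but its length was 1040 kb in 2D (chr7:23280001-24320000) with 29 protein-coding genes, and 400 kb in 3D (chr7:23920001-24320000) with 15. Zfp428 and Zfp575 lay in a stretch of 240 kb outside TADs in 2D and in a TAD of 160 kb (chr7:24440001-24600000) in 3D. The start of Zfp574 lay in the same 80 kb gap in both lists. Zfp526 was in a TAD of 160 kb in 2D and of 320 kb in 3D that began at the same position.

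The Zfp553 to Zfp646 cluster had 5 genes, Zfp768, Zfp747, Zfp764, Zfp688 and Zfp689, in a TAD of 240 kb in 2D (chr7:127280001-127520000). In 3D this TAD began 1 bin earlier (chr7:127240001-127520000) and also held Zfp771, which was outside in 2D. Zfp553 and Zfp629 were outside in 2D and in TADs of 120 kb and 160 kb in 3D. Zfp668 and Zfp646 lay together in both lists, in a TAD of 120 kb in 2D and of 200 kb in 3D.

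In the Zfp628 to Zfp580 cluster, 5 genes (Zfp628, Zfp579, Zfp524, Zfp865 and Zfp784) were outside in 2D, in a stretch of 480 kb (chr7:4560001-5040000). In 3D, Zfp628 was in a TAD of 120 kb and the others, with Zfp580, in a TAD of 160 kb (chr7:4920001-5080000). The 2D TAD with Zfp580 was 1240 kb long and reached into the next cluster. In the Zfp60 to Zfp36 cluster no gene was inside a TAD in 2D, and the longest stretch outside TADs that held any of the 120 genes, 560 kb (chr7:27560001-28120000), held Zfp60, Zfp626, Zfp59, Zfp974 and Zfp850. In 3D a TAD of 160 kb (chr7:27800001-27960000) held Zfp626, Zfp59 and Zfp974, while Zfp60, Zfp850 and Zfp36 lay in 3 separate gaps of 80 kb.

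The remaining 5 clusters had all their genes inside TADs in both lists. Zfp667, Zfp583, Zfp78 and Zfp28 and the whole Zfp954 to Zfp772 cluster shared 1 TAD of 1080 kb (chr7:6280001-7360000), with 8 of the 120 genes and the same ends in both cultures. It also holds Peg3 and Zim1, imprinted zinc finger genes. The Zfp808, Zfp935 and Zfp934 cluster lay in a TAD of 880 kb (chr13:62000001-62880000), again with the same ends in both. In the Zfp551 to Zfp446 cluster the border between 2 TADs lay 1 bin apart, and Zfp128 was on its left side in 2D and on its right side in 3D. Zfp551, Zfp606, Zfp329 and Zfp110, a gene first known for binding the neurotrophin receptor p75, were in a TAD of 1400 kb in 2D (chr7:11520001-12920000) and of 2920 kb in 3D (chr7:9960001-12880000). In the Zfp141 to Zfp819 cluster, Zfp141, Zfp977, Zfp976, Zfp975, Zfp936 and Zfp715 were with Zfp788 in a TAD of 2040 kb in 2D (chr7:41320001-43360000) and of 3960 kb in 3D (chr7:39400001-43360000). The latter was the longest TAD of the 3D list that held any of the 120 genes, and it also took in Zfp619. At the other end of this cluster, Zfp658 and Zfp719 were in a TAD of 160 kb in 2D (chr7:43440001-43600000) and Zfp819 in the next TAD, of 760 kb. In 3D these 3 genes shared a TAD of 120 kb (chr7:43560001-43680000).

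**Figure D4:**
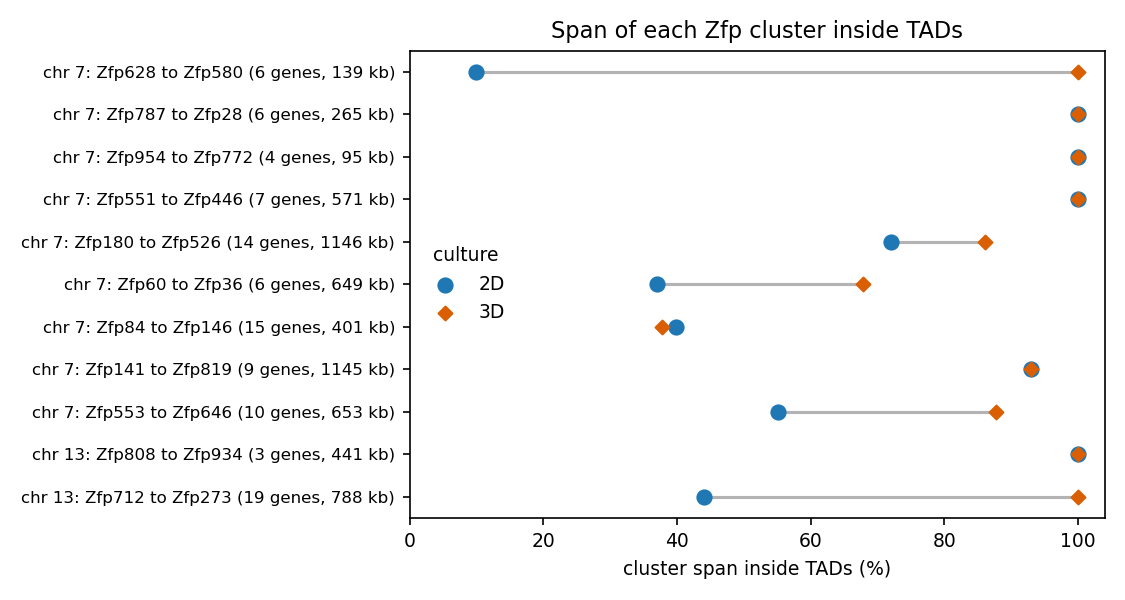
Percent of the span of each of the 11 clusters, from the first to the last base of its genes, that lies inside TADs (horizontal axis), with the 2D list as blue circles and the 3D list as orange diamonds. The chromosome 13 cluster from Zfp712 to Zfp273 goes from 44.0% to 100% and the Zfp628 to Zfp580 cluster from 9.91% to 100%, whereas the Zfp84 to Zfp146 cluster is at 39.9% and 37.7%.

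By span, TADs covered 44.0% of the Zfp712 to Zfp273 cluster in 2D and 100% in 3D, and 9.91% and 100% of the Zfp628 to Zfp580 cluster. The Zfp60 to Zfp36 cluster was covered to 37.0% in 2D and 67.8% in 3D, the Zfp553 to Zfp646 cluster to 55.1% and 87.7%, and the Zfp180 to Zfp526 cluster to 72.1% and 86.0%. The Zfp84 to Zfp146 cluster, at 39.9% and 37.7%, was the only one with a lower value in 3D, and the difference was under 1 bin. The Zfp141 to Zfp819 cluster had 93.0% in both lists, and the other 4 had 100% in both.

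The stretches outside TADs that held any of the genes numbered 10 in 2D (80 to 560 kb, median 240 kb) and 6 in 3D (80 to 160 kb, median 80 kb). The median over all stretches between TADs was 80 kb in both lists. That set includes stretches without any gene start. A longer stretch is more likely to hold a start, so these medians are not of like sets. Of the 1569 stretches of the 2D list, 49 were longer than the 560 kb stretch at Zfp60, and 61 were longer than the 480 kb stretches at Zfp628 and Zfp712. In 3D, 212 of 1188 stretches were longer than the 160 kb stretches beside the central TAD of the Zfp84 to Zfp146 cluster. All 10 stretches of 2D and all 6 of 3D that held any of the genes measured a multiple of 80 kb. So did 1508 of all 1569 stretches in 2D and 1129 of all 1188 in 3D. The shortest TAD with a protein-coding gene measured 120 kb in both lists. Whether domains of 80 kb that are absent from the lists fill these stretches was not tested. A start outside TADs therefore means outside the listed TADs only.

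The genes lay in 33 TADs in 2D and 37 in 3D. Counting each TAD once, the median size was 240 kb in 2D (quartiles 160 and 920 kb, range 120 to 2320 kb) and 200 kb in 3D (quartiles 160 and 680 kb, range 120 to 3960 kb). Rank intervals of the medians were 160 to 760 kb and 160 to 320 kb and overlapped. TADs with any protein-coding gene had medians of 240 kb in 2D and 280 kb in 3D. Weighted by gene, the median TAD of the 120 genes measured 880 kb (2D) and 400 kb (3D), beside 320 kb in both lists for all protein-coding genes. For the other genes of chromosomes 7 and 13 it was 440 kb in 2D and the same 400 kb in 3D. The chromosomes went opposite ways, from 1040 kb (2D) to 280 kb (3D) for the genes of chromosome 7 and from 240 kb (2D) to 960 kb (3D) for those of chromosome 13. The largest TADs of 2D with such genes held Zfp507 and Zfp536, the latter a repressor of neuronal differentiation, which shared a TAD of 2320 kb (chr7:35640001-37960000), and in 3D this TAD was 2280 kb. The smallest TADs, of 120 kb, held 11 of the genes in 2D and 12 in 3D. Zfp473, a factor in histone mRNA processing, and Zfp143, an activator of small nuclear RNA genes, were in TADs of 120 kb in both lists.

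**Figure D5:**
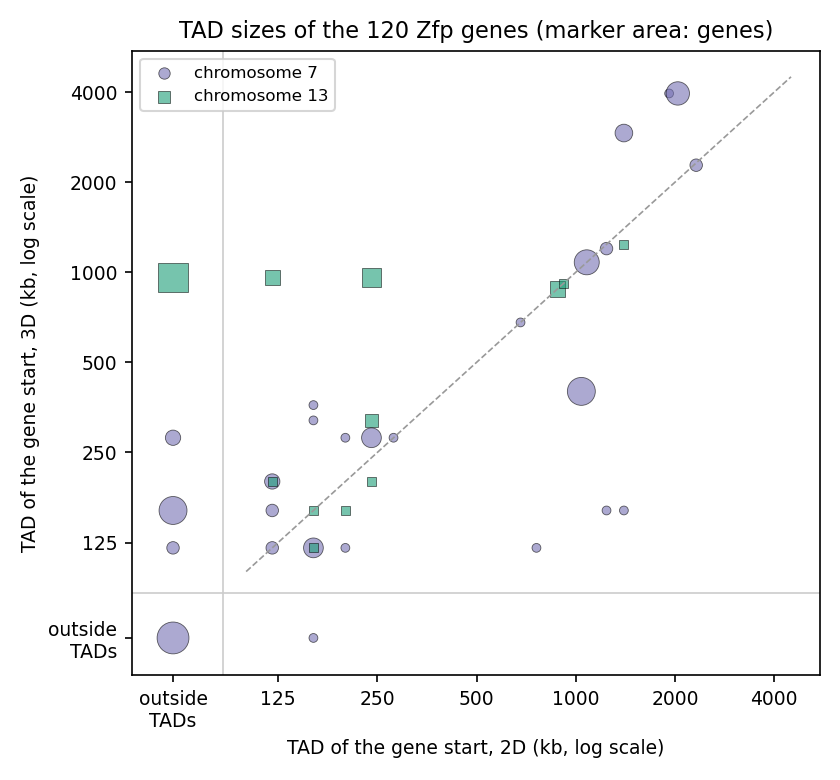
Size of the TAD that holds the start of each of the 120 genes in 2D (horizontal axis) and in 3D (vertical axis), in kb on log scales, with chromosome 7 as circles and chromosome 13 as squares; marker area grows with the number of genes and the dashed line marks equal sizes. The square at the left edge is the 11 genes outside TADs in 2D and in the 960 kb TAD in 3D, and the circle at the lower left is the 13 genes outside in both.

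Of the 80 genes inside TADs in both lists, 36 (45%) were in a longer TAD in 3D, 27 (33.8%) in a shorter one and 17 (21.2%) in one of the same length. For all protein-coding genes inside in both lists, the shares were 30.8%, 19.96% and 49.3%. A TAD was taken to have a counterpart when both its ends lay within 40 kb of the ends of 1 TAD of the other list. Of the 81 genes inside TADs in 2D, 39 (48.1%, 37.6 to 58.9) were in a TAD with a counterpart in 3D, against 66.9% of all such genes. Of the 106 inside in 3D, 39 (36.8%, 28.2 to 46.3) were in a TAD with a counterpart in 2D, against 61.8%. The other genes of both chromosomes had shares of 63.99% and 57.5%. The 10 genes around Zfp112, the 8 genes of the chromosome 13 cluster from Zfp58 to Zfp273 and 7 genes with Zfp141 and Zfp788 made up most of those whose 2D TAD had none. Among the 88 pairs of neighbours within clusters, 43 (48.9%) were in the same TAD in 2D and 64 (72.7%) in 3D. For all 21064 pairs of consecutive protein-coding genes at most 500 kb apart, the shares were 57.6% and 64.8%. The pairs of the clusters can have other genes between them. Of the 88, 41 were together in both lists, 23 (26.1%) in 3D only, against 11.9% of all such pairs, and 2 (2.27%) in 2D only, against 4.69%. The Zfp712 to Zfp273 cluster gave 12 of the 23.

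Starts within 40 kb of a border, taken as any start or end of a TAD, numbered 38 of 120 in 2D (31.7%, 24.0 to 40.4) and 37 in 3D (30.8%, 23.3 to 39.6). Over all protein-coding genes the shares were 41.1% and 38.7%. The median distance to the nearest border was 66.7 kb (2D) and 72.5 kb (3D), beside 53.6 and 58.3 kb for all genes. The other genes of chromosomes 7 and 13 had median distances of 66.2 and 67.4 kb, and 37.1% and 35.7% of their starts were within 40 kb of a border. A border fell within the gene body of 5 genes in 2D (4.17%, against 14.9% of all genes) and of 4 in 3D (3.33%, against 13.8%). Zfp574, Zfp566 and Zfp143 were crossed in both lists, Zfp541, a gene of meiotic spermatocytes, and Zfp646 in 2D only, and Zfp628 in 3D only. Among the other genes of both chromosomes, 10.6% were crossed in 2D and 10.4% in 3D. The median length was 14.8 kb for the 120 genes, 12.5 kb for the other genes of both chromosomes and 17.4 kb for all genes, and the part of gene length in these counts was not tested.

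Within 40 kb of the clusters there were 26 borders in 2D and 28 in 3D. A border was shared when the other list had one within 40 kb. This held for 20 of the 26 in 2D (76.9%, 57.9 to 89.0), against 81.9% of all borders, and for 21 of the 28 in 3D (75%, 56.6 to 87.3), against 88.1%. Borders at exactly the same position numbered 13. The unshared borders of 3D included 4 at the Zfp60 to Zfp36 cluster, where the 3D list had TADs within the 560 kb stretch of the 2D list. In the Zfp712 to Zfp273 cluster, the borders of the 2D list at 67000000, 67480000 and 67600000 of chromosome 13 had none near them in 3D.

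The promoters of the clusters were compared as far as the RefSeq promoter table for GRCm38.p6 allowed. It gives 300 bases from before to just after each gene's start, 107 of the 120 genes matched by symbol, and 95 of these lay within 1000 bases of the start used here. The 12-base word followed here is TGGGAAATGTAG, or CTACATTTCCCA on the other strand. It was chosen after the promoters of the Zfp712 to Zfp273 cluster had been compared, as 1 of 2 overlapping words that tied for the highest count there, the other being GGGAAATGTAGT. It was present on either strand in 6 of 14 promoters of that cluster (42.9%), 4 of them from the 2D stretch outside TADs, and in 9 of 14 promoters of the Zfp84 to Zfp146 cluster (64.3%). Of all 95 promoters, 19 (20%) held the word, and so did 146 of all 32544 distinct promoters (0.449%). Windows of 72 bases from the chromosome 13 cluster are printed to show the word and how far the bases around it are alike. Each runs 5′ to 3′ on the strand of its gene, with the word in capitals.
Zfp712 (chr13:67061186-67061257, minus strand): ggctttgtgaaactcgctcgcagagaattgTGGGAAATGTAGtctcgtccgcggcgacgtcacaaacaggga
Zfp457 (chr13:67306451-67306522, minus strand): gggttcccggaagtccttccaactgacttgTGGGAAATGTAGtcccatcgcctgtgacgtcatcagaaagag
Zfp595 (chr13:67332571-67332642, minus strand): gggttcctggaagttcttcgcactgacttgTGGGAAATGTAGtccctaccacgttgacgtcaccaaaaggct
Zfp953 (chr13:67360607-67360678, minus strand): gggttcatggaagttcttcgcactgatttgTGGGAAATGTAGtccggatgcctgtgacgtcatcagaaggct
Zfp273 (chr13:67813718-67813789, plus strand): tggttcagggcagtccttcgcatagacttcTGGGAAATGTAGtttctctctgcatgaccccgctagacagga
Zfp712, Zfp457, Zfp595 and Zfp953 were outside TADs in 2D and in the 960 kb TAD in 3D, and Zfp273 was inside TADs in both lists. The same word in promoters of the Zfp84 to Zfp146 cluster, on the other strand in Zfp420 and Zfp566, is printed for genes that were outside TADs in both lists.
Zfp790 (chr7:29815937-29816008, plus strand): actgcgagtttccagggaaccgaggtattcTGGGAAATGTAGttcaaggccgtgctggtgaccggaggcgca
Zfp420 (chr7:29859891-29859962, plus strand): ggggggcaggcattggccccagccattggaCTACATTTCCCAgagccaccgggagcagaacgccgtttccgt
Zfp566 (chr7:30090544-30090615, minus strand): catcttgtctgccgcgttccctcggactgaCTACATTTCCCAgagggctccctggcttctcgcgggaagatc
By placement, 7 of 11 promoters of genes outside TADs in both lists held the word (63.6%), 5 of 21 of those inside only in 3D (23.8%) and 6 of 62 of those inside in both (9.68%). Without the Zfp712 to Zfp273 cluster, on which the word was picked, the last 2 counts were 1 of 12 (8.33%) and 4 of 57 (7.02%). Of the 7, 6 were from the Zfp84 to Zfp146 cluster and the other was that of Zfp60. Within that cluster, 6 of 9 promoters of genes outside in both lists held the word, and 3 of the 5 others did (Zfp84, Zfp74 and Zfp14). A match is a description of these letters and says nothing of what binds them.

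Composition over all 11 clusters was set beside the rest of chromosomes 7 and 13. GC content was 44.6% in the clusters and 42.4% in the rest, repeats covered 37.5% and 34.3%, and there were 105.7 and 102.3 MboI sites per 40 kb. Words of 30 bases that recur in the genome made up 26.2% of those sampled in the clusters and 20.05% in the rest, and words of 150 bases 4.68% and 6.64%. Among the bins that hold gene starts, the share of recurring 150-base words was 2.57% in the 66 bins inside TADs in both lists, 3.63% in the 20 bins inside only in 3D and 1.34% in the 10 bins outside in both. The bins outside in both had the fewest recurring words of these 3 groups. However, 9 of the 13 genes outside in both were from the Zfp84 to Zfp146 cluster, where such words made up 0.561%. Across the 3D stretches that held these genes, the share ran from 0% at Zfp574 to 6.56% at Zfp850. A read that recurs over its full length cannot pass the mapping filter, while one that starts in a short recurring word was extended stepwise and could still be placed. The part of such reads in the placement was not tested.

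The partners of these proteins were placed in the same way, from a list of 24 genes of the silencing pathway. Trim28, the shared corepressor, is itself on chromosome 7 beside the Zfp551 to Zfp446 cluster, in the TAD with Zfp324 and Zfp446, which was 120 kb with 9 protein-coding genes in 2D and 160 kb with 11 in 3D. Setdb1, the H3K9 methyltransferase, was in a TAD of 200 kb in both lists. The HP1 genes Cbx1 and Cbx5 were in TADs of 120 and 160 kb in both, and Cbx3 was outside in 2D and in a TAD of 120 kb in 3D. In all, 13 of the 24 were inside TADs in both lists, 7 in 3D only, 2 in 2D only and 2 in neither. In 2D, 9 of 24 were outside (37.5%, 21.2 to 57.3), and in 3D 4 (16.7%, 6.68 to 35.9), beside 23.3% and 16.5% of all protein-coding genes.

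Among the 21 genes apart from the clusters, all of them inside TADs in both lists, sizes differed from gene to gene. Zfp541 was in TADs of 160 kb (2D) and 360 kb (3D), and Zfp184 in TADs of 240 and 200 kb. Zfp346, which binds double-stranded RNA, was in TADs of 160 and 120 kb, and Zfp366, a gene of dendritic cells, in TADs of 200 and 160 kb. Zfp369 was in a TAD of 920 kb in both lists, and Zfp169 in TADs of 1400 and 1240 kb. Zfp619, with the most finger patterns, was in a TAD of 1920 kb in 2D and in the 3960 kb TAD in 3D.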

How the data were processed

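In situ Hi-C was run on 4 samples. The deposited values are of another kind, neither counts nor signal: start and end positions in mm10, 1 list per culture. The authors mapped reads with Bowtie2 (version 2.2.9) in rounds of growing length, kept pairs of mapping quality above 30, combined replicates, binned contacts at 40 kb, corrected them with ICE, set each chromosome to equal depth in both cultures and called TADs with Armatus (version 1.0, gamma 0.8). The read filter thins contacts in repeated sequence, and combining replicates leaves no replicate error.

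Genes were those of GENCODE release M21 on GRCm38, and TAD starts are given 1-based. A gene was inside a TAD when its 5′ start was. Clusters had at least 3 genes with gaps of at most 500 kb. Borders were distinct TAD starts or ends, shared within 40 kb. Every clustered gene is named. Further placements follow a rule: the largest clusters, genes outside TADs or crossed by a border, the extreme TADs and a short list of known genes. The members and lists were chosen with earlier results of these data known. Python (version 3.11.15), numpy (2.4.6), scipy (1.17.1), numba (0.67.0) and Biopython (1.88) were used. Placement was tested on 2000 simulated TADs, and 6 of 6 measures returned the known answers. Recurring words were sampled every 50 bases. Alternatives were other gene names, gene midpoints, longer TADs, each chromosome, other gaps and other border distances.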

Additional observations from a re-analysis of the deposited data

How the results depend on the processing

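Of 86 values recomputed under other settings, 58 were counted as unchanged, 27 as moved and 1 turned its sign. Unchanged did not always mean a small shift. The difference of the median TAD size, 3D minus 2D, was -40 kb, and it was counted as unchanged where its sign was kept. This included -440 kb when TADs under 200 kb were left out and -480 kb when TADs were counted per gene. The difference was 20 kb on chromosome 13 alone and 0 kb for clustered genes alone, so it has no stable direction. TADs holding genes on chromosome 7 alone, 22 in 2D and 27 in 3D, were also counted as unchanged. With TADs of at least 200 kb only, medians were 820 kb (2D) and 380 kb (3D), the shares outside TADs 50.0% and 35.0%, the TADs holding genes 20 and 22, and the starts within 40 kb of a border 16.7% and 15.8%. With each TAD counted once for each gene in it, medians were 880 and 400 kb, but 240 and 960 kb on chromosome 13 alone. On chromosome 13 alone, 0% of starts were outside in 3D, the TADs numbered 11 in 2D and 10 in 3D, shared borders were 25% (1 of 4) and 100% (1 of 1), and starts near a border 22.6% and 19.4%. For clustered genes alone the TADs numbered 15 and 20. Borders at the same position were 50.0% and 46.4%, and 50.0% of the 3D borders were shared when only positions where TADs meet were taken. Within 80 kb of a border lay 52.5% and 51.7% of starts. Genes whose 2D TAD had a counterpart fell to 20.99% with the same ends and 37.0% with a reciprocal overlap of 80%. Clusters numbered 12 with gaps of at most 250 kb and 10 with gaps of at most 1000 kb. Of 24 values recomputed without the Zfp712 to Zfp273 or the Zfp84 to Zfp146 cluster, which were added after seeing the data, 1 moved, the share outside in 3D, which was 3.81% without the latter. In each of these settings that gave both shares, the share outside was lower in 3D than in 2D. The cause of these shifts was not tested.

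No paired analysis was possible because the replicates had been combined into 1 list per culture, and for the same reason no replicate was left out. The depth of each TAD is unknown, and its ends are given only to the nearest 40 kb bin.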

Other observations

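A further 32 genes of chromosomes 7 and 13 belong to related zinc finger families, or carry a letter after the digits of their Zfp name. In 2D 13 of them (40.6%, 25.5 to 57.7) were outside TADs, against 23.3% of all protein-coding genes. In 3D 2 of them (6.25%, 1.73 to 20.1) were, Zfp780b and Zbtb32, against 16.5%. The 13 are not independent of the 120 genes or of each other. Zfp607b, Zfp607a and Zfp780b lay in the same 560 kb stretch of 2D as Zfp60. Rsl1 and Zfp874a lay in the 480 kb stretch with Zfp712. The Zscan4 genes, known for bursts of expression in 2-cell embryos and in rare embryonic stem cells, were placed differently by the lists. Zscan4b, Zscan4c, Zscan4-ps1, Zscan4e, Zscan4f and Zscan4-ps2 were outside TADs in 2D, in stretches of 320 and 240 kb. Zscan4d was in a TAD of 120 kb and Zscan4-ps3 in one of 1400 kb. In 3D all 8 lay in the TAD of 2920 kb that also held Zfp551, Zfp606, Zfp329 and Zfp110. The Zscan4 genes are near-identical copies, so reads from one may be lost to the mapping filter, and the part of this in their placement was not tested.

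The SCAN domain genes of chromosome 13, Zscan12, Zkscan3, Zscan26, Zkscan4 and Zkscan8, were together in both lists, in a TAD of 360 kb in 2D and 400 kb in 3D. Rsl1 and Zfp874a were outside TADs in 2D and in the 960 kb TAD with the Zfp712 to Zfp273 genes in 3D.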
